A study of Mus musculus with 42 samples.

Results

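The 150 most abundant long noncoding RNA genes of mouse bone marrow-derived macrophages were followed through β-glucan and lipopolysaccharide (LPS) treatment in aged and young mice. They are the 150 genes with the highest mean CPM (counts scaled to a common library total, here each library's raw total) over all 42 libraries, among the 8385 genes that the table annotates as lincRNA or antisense, of which 3600 had a count in any library. The table holds 54532 genes in all. Measured levels chose the members, so their abundance and rank are given as a description with no test. The 42 libraries also set the treatment comparisons, and a gene that is high only in some groups could enter through those groups. Of the 150 genes, 90 are annotated as lincRNAs, a class of mostly intergenic RNAs, and 60 as antisense RNAs, a class defined by its place opposite to another gene. The spans of 72 members, 17 of them lincRNAs, overlap a protein-coding gene. All 150 passed the filter on low counts.

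Macrophages were grown with M-CSF from the whole bone marrow of wild-type male C57BL/6 mice, either aged (18 to 20 months) or young (10 to 12 weeks). β-glucan, a fungal cell-wall sugar that primes innate immune cells, was given at 5 µg/mL, and LPS, a bacterial product sensed by TLR4, at 100 ng/mL. Primed LPS cultures received β-glucan for 24 h, rested for 3 days and then had LPS for 4 h (3 aged and 3 young libraries). LPS cultures had LPS for 4 h with no β-glucan (3 aged, 6 young), and the time these had spent in culture is not given in the sources used here. β-glucan cultures were collected at 4 h, at 24 h, or 3 days after a 24 h exposure, called day 3 below (3 aged and 3 young libraries each). Controls had 0.1% saline for 24 h and were collected 3 days later (3 aged, 6 young), so for β-glucan at 4 h and 24 h treatment and time of collection cannot be told apart. The labels call the libraries biological replicates but do not say whether each came from a separate mouse, so p-values measure the spread between these libraries. Only the young control and LPS groups have replicates 4 to 6. The labels do not say what sets these apart, and here they were assumed to be a second set and given a term in the model, since some levels differed between replicates 1 to 3 and 4 to 6. The comparisons of age rest on that assumption. So do those of young β-glucan groups with controls and of young primed with unprimed LPS. There the term sets the young control or LPS group at the level of its replicates 1 to 3. Levels printed for such a group cover all 6 libraries unless replicates 1 to 3 are named.

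Library totals ran between 39850835 and 67347866 counts. All 7 macrophage markers were detected, with a summed level of 17800 to 24400 CPM in libraries with LPS and 27500 to 38100 CPM in those without, while neutrophil markers summed to 1.28 to 5.55 CPM and B cell markers to at most 1.84 CPM. Stromal markers summed to 54.3 to 155 CPM in aged controls and 26.7 to 94.1 CPM in young controls. Levels in the comparisons are scaled CPM, counts over library totals scaled by trimmed mean of M-values (TMM), and folds are log2 differences from edgeR's quasi-likelihood test with Benjamini-Hochberg adjustment over 17648 genes. A gene is said to have risen or fallen where its adjusted p was under 0.05. LPS changed the composition of the libraries, with TMM factors of 0.667 to 0.777 in the 15 libraries with LPS and 1.13 to 1.28 in the 27 without. Scaling to total counts alone moved the median of all genes by -0.80 log2 units in the young LPS comparison.

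Long noncoding RNAs are long transcripts annotated as not coding for proteins, and whether any member is translated was not tested. Some stay in the nucleus as scaffolds, some act on a neighbouring gene, and some are mainly the precursors of microRNAs or small nucleolar RNAs held in their exons or introns. In macrophages several of them are known targets of TLR signalling, among them the host RNA of miR-155 and lincRNA-Cox2, which is annotated here as Ptgs2os2.

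Of the 150 genes, 7 held annotated microRNA hairpins, giving 22 mature microRNAs. The sequences of microRNAs in 4 of these hosts are shown because the hosts took different courses under LPS, and because some share a seed. Capitals mark the seed (bases 2 to 8 from the 5′ end), and the sequences are RefSeq's on GRCm38.p6.
mmu-miR-155-5p: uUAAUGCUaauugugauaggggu
mmu-miR-155-3p: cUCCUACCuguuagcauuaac
mmu-miR-223-3p: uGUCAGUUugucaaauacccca
mmu-miR-142a-3p: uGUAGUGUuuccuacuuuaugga
mmu-miR-17-5p: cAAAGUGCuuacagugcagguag
mmu-miR-20a-5p: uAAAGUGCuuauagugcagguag
mmu-miR-19a-3p: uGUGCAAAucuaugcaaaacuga
mmu-miR-19b-3p: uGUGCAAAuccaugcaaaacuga

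The miR-155 pair lies in Mir155hg (chr16:84703167-84715245, plus strand), and miR-155 is a microRNA known for amplifying inflammatory signalling. The miR-223 hairpin lies in F630028O10Rik (chrX:96239926-96243636, plus strand), and miR-223 is a myeloid microRNA that restrains inflammatory signalling. The miR-142a hairpin lies in Mir142hg, a host RNA of blood cells. In Mir17hg, the host of the miR-17 to miR-92 cluster that is known for driving proliferation, miR-17-5p and miR-20a-5p share the seed AAAGUGC and miR-19a-3p and miR-19b-3p share GUGCAAA. Counts of a host gene measure its long RNA and not the mature microRNA.

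RefSeq promoter windows (250 bases before to 50 after the start, GRCm38.p6) were held for 76 of the 150 genes. On both strands, the interferon-stimulated response element (ISRE) core (GAAA, any 2 bases, GAAA) was found in 5 of these 76 windows against 3.49% of 27025 promoters, the AP-1 motif TGANTCA in 5 against 7.93%, the cyclic AMP element TGACGTCA in 1 against 1.88%, and the NF-κB motif in 7 against 8.18%. None of these patterns can contain another. Members that rose with LPS in young cells had 25 of the windows. Of these 25, 4 held the ISRE core, 3 the NF-κB motif, 2 the AP-1 motif and 0 the cyclic AMP element. The promoters of 2 genes that rose with LPS and 1 that fell are shown in transcript direction, with the NF-κB match (AW112010) or the ISRE core match (Ptgs2os2 and F630028O10Rik) in capitals. A match is a match of letters and no more.
AW112010 (chr19:11050517-11050816, minus strand): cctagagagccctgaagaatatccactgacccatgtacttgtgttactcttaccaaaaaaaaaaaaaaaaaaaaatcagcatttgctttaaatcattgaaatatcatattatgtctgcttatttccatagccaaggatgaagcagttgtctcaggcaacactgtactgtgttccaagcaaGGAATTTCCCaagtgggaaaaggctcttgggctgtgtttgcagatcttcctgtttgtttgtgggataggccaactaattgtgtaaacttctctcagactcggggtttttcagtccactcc
Ptgs2os2 (chr1:150164899-150165198, minus strand): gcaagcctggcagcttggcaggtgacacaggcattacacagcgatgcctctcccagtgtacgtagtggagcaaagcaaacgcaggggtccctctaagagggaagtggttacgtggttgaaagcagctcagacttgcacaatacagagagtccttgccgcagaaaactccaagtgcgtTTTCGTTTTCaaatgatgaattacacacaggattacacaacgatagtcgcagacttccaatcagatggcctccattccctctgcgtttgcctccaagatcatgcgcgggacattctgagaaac
F630028O10Rik (chrX:96239676-96239975, plus strand): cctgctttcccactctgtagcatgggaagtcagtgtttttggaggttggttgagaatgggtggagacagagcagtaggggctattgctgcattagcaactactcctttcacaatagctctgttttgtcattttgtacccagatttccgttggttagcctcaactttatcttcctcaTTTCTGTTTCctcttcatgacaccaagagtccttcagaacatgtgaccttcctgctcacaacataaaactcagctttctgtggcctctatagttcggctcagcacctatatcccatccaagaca

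Abundance was concentrated in a few RNAs. Neat1, the scaffold of paraspeckles, averaged 456 CPM over the 42 libraries, and Malat1, an RNA of nuclear speckles, averaged 444 CPM. Both lie on chromosome 19, Neat1 at chr19:5824708-5845478 and Malat1 at chr19:5795690-5802672 on the minus strand (mm10), and together they held 27.5% of all counts of long noncoding RNA genes. The 150 genes held 84.7% of those counts, and the leading 10 held 55.7%. After Neat1 and Malat1 came 2900097C17Rik at 200 CPM, AW112010 at 177 CPM, 1700020I14Rik at 144 CPM, Brip1os at 103 CPM and Tug1, a nuclear and cytoplasmic RNA found in many tissues, at 101 CPM. The median member averaged 4.17 CPM, and 91 of the 150 averaged under 5 CPM. The last members were Gm37787 at 2.07 CPM and Mypopos at 2.06 CPM, and the first genes outside were BC051226 at 2.05 CPM and Gm16973 at 2.00 CPM.

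**Figure D1:**
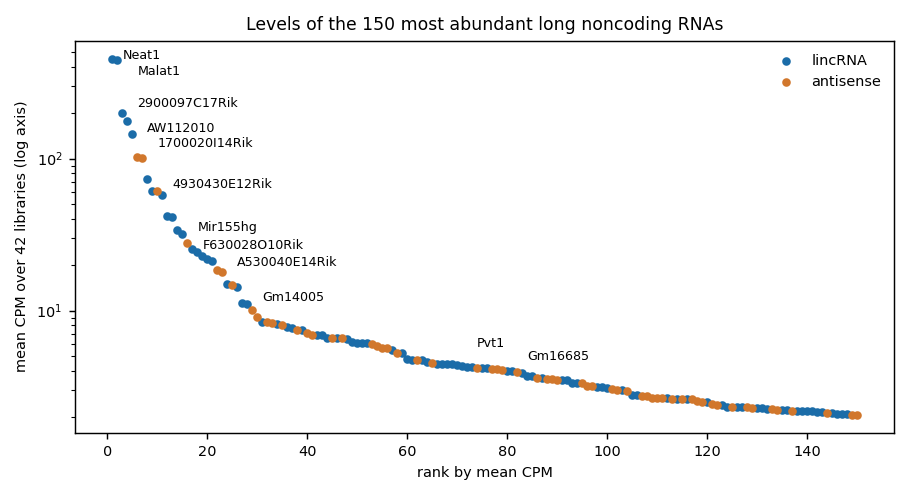
Mean CPM over 42 libraries (log axis) of the 150 long noncoding RNA genes against their rank by that mean, with lincRNA and antisense genes in separate colours. Neat1 (456 CPM) and Malat1 (444 CPM) lead, 29 genes lie above 10 CPM, and the last lies at 2.06 CPM.

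Ranking per length changed the order. Per kilobase of exons, AW112010 led with 230 CPM per kb, followed by Gm10076 with 66.2, Malat1 with 63.6 and 4930430E12Rik with 53.7 CPM per kb, while the long Neat1 had 21.9 CPM per kb. A ranking per kilobase shared 104 of its 150 genes with the one used, and one on the controls alone shared 128. Of the 150, 66 were also among the leading 150 in each of the 12 groups. The genes had a median exonic length of 2514.5 bases, against 988 bases for all long noncoding RNA genes. In 59 genes some exonic bases were shared with an exon of a coding gene, and the strand setting of the counting is not given in the sources used here, so reads there cannot be assigned to either gene. Gm26917, at 42.2 CPM, sits at a copy of the ribosomal RNA precursor in the assembly, and its counts are uncertain.

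LPS for 4 h changed most of the 150 genes at both ages, as it did most genes of similar level. In aged macrophages 40 rose (26.7%) and 60 fell (40%), where 26.6% of all tested genes rose and 28.9% fell. In young macrophages 47 rose (31.3%) and 76 fell (50.7%), against 30.3% and 34.7% of all genes. Among the 11018 genes at or above the lowest member in level, 35% rose and 37.2% fell in aged cells and 38.5% rose and 42.2% fell in young cells. The members' median log2 change was -0.30 in aged and -0.39 in young cells, beside -0.08 and -0.10 over all tested genes. Scaling to total counts gave 31 higher and 92 lower in aged cells, and 35 higher and 98 lower in young cells. Under that scaling the median log2 change over all genes was -0.82 in aged and -0.90 in young cells. Shares of all genes called under total counts are not given here or below. Of the 128 genes that would also rank among the first 150 in controls, a split made after the data were seen, 22 rose and 59 fell in aged cells and 27 rose and 75 fell in young cells. The other 22 genes ranked among the 150 only through treated libraries, so a split on control levels favours rises among them. They had 18 rises and 1 fall in aged cells and 20 rises and 1 fall in young cells. These counts describe the split and are no test. In such bulk samples, fewer cells of a type and less RNA per cell cannot be told apart. Dendritic cell markers summed to 4.68 to 9.06 CPM in libraries with LPS and to 0.714 to 2.08 CPM in controls. Among these markers Xcr1 reached 8.49 CPM, while the highest library had 1.52 CPM for Zbtb46, 0.214 for Flt3 and 0.17 for Siglech. The part of such cells in these changes was not tested. Rises or falls in both ages, in the same direction, numbered 97, which is 97% of the aged calls and 78.9% of the young calls, and none was opposite. This overlap was not counted over all genes, so it cannot be called particular to the members.

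**Figure D2:**
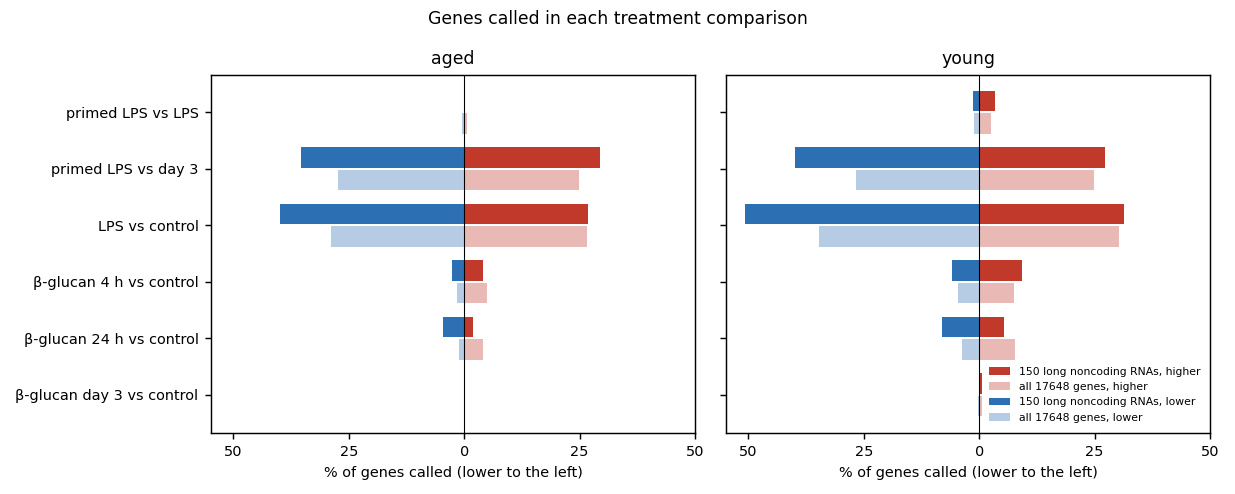
Percentage of the 150 long noncoding RNA genes and of all 17648 tested genes that were called higher (right of 0) or lower (left of 0) in each comparison, for aged and young macrophages (edgeR, adjusted p under 0.05). In the young LPS comparison 47 of 150 genes were higher and 76 lower, and at day 3 of β-glucan the bars lie at or near 0.

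The most abundant of the 150 genes with LPS was AW112010 (chr19:11047617-11050566, minus strand), an RNA known to be induced in activated immune cells. AW112010 stood at 698, 826 and 609 scaled CPM in aged LPS libraries, against 5.57, 11.4 and 7.30 in aged controls. In young cells it stood at 613, 673 and 931 scaled CPM in LPS libraries (lowest, median and highest of 6), against 4.72, 6.05 and 8.86 in controls. No LPS library came near a control. The log2 change was 6.46 in aged cells (SE 0.46, adjusted p = 1.60e-13, edgeR's quasi-likelihood test with Benjamini-Hochberg adjustment) and 6.82 in young cells (SE 0.33, adjusted p = 5.73e-18).

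Mir155hg, the host of the miR-155 sequences above, was nearly absent without LPS. It stood at 133, 132 and 116 scaled CPM in aged LPS libraries, against 0, 0 and 0.0366 in aged controls. In young cells it stood at 108, 148 and 174 scaled CPM in LPS libraries (lowest, median and highest), against 0, 0.0516 and 0.227 in controls. The young controls held 27 counts of Mir155hg in all, and the ratio of pooled levels was 1800, with a 95% counting interval of 1237 to 2732 that covers counting error only. The aged controls held 3 counts, with a ratio of 7916 and an interval of 2709 to 38390, so the size of the aged ratio is poorly fixed.

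Gm16685, which lies antisense to the interleukin gene Il7 (chr3:7612705-7690001, plus strand), showed the same on-off course. Its level was 16.8, 20.4 and 15.8 scaled CPM in aged LPS libraries, against 0.0565, 0 and 0 in aged controls. In young cells Gm16685 stood at 10.9, 14.3 and 17.9 scaled CPM with LPS (lowest, median and highest), against 0, 0 and 0.0925 in controls, where 4 of 6 libraries had no count. The ratio of pooled levels in young cells was 699.5, with a counting interval of 339.5 to 1740 on 7 control counts.

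Ptgs2os2 (chr1:150159043-150164948, minus strand), known as lincRNA-Cox2, stood at 18.2, 10.4 and 7.08 scaled CPM in aged LPS libraries, against 0.546, 0.170 and 0.257 in aged controls. Its log2 change was 5.21 in aged cells (SE 0.50) and 5.24 in young cells (SE 0.36), where LPS libraries averaged 12.7 ± 3.42 and controls 0.333 ± 0.202 scaled CPM (SD, n = 6 each). Gm14005, also known as Morrbid and lying antisense over Bcl2l11, averaged 29.1 ± 2.57 scaled CPM with LPS and 5.46 ± 1.63 in controls of aged cells (SD, n = 3 each), a log2 change of 2.41. In young cells Gm14005 averaged 28.3 ± 2.03 scaled CPM with LPS and 6.22 ± 2.08 in controls (SD, n = 6 each), a log2 change of 2.19. For both genes the LPS and control libraries did not overlap at either age.

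Among the abundant RNAs, 4930430E12Rik rose with small spread. It stood at 137, 123 and 127 scaled CPM in aged LPS libraries and 28.7, 29.2 and 27.2 in aged controls, a log2 change of 2.19 (SE 0.11). In young cells it stood at 117 to 125 in LPS replicates 1 to 3 against 26.4 to 28.6 in control replicates 1 to 3, and at 78.9 to 104 in LPS replicates 4 to 6 against 17.4 to 20.7 in control replicates 4 to 6. Replicates 4 to 6 were thus lower in both conditions, and the log2 change with a term for them was 2.22 (SE 0.08).

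Several RNAs beside inflammatory genes also rose more than 4-fold. Gm34643, whose nearest coding gene is Acod1, the enzyme that makes itaconate, had log2 changes of 3.37 in aged and 3.01 in young cells. Gdap10, whose nearest coding gene is Nampt, an enzyme of NAD synthesis, had 3.16 and 3.13, and Gm26809 had 3.00 in aged and 3.02 in young cells. Gm37787 had log2 changes of 5.06 and 5.12, but 72.3% of its exonic bases are shared with the LPS-induced Slamf7. A530040E14Rik, Gm16094 and Gm17017 lie in the Sp100 and Sp110 gene cluster of chromosome 1, a region of near-identical copies, so that reads may be split among them. Their log2 changes were 4.81, 5.08 and 4.20 in aged cells and 6.07, 7.96 and 4.65 in young cells.

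**Figure D3:**
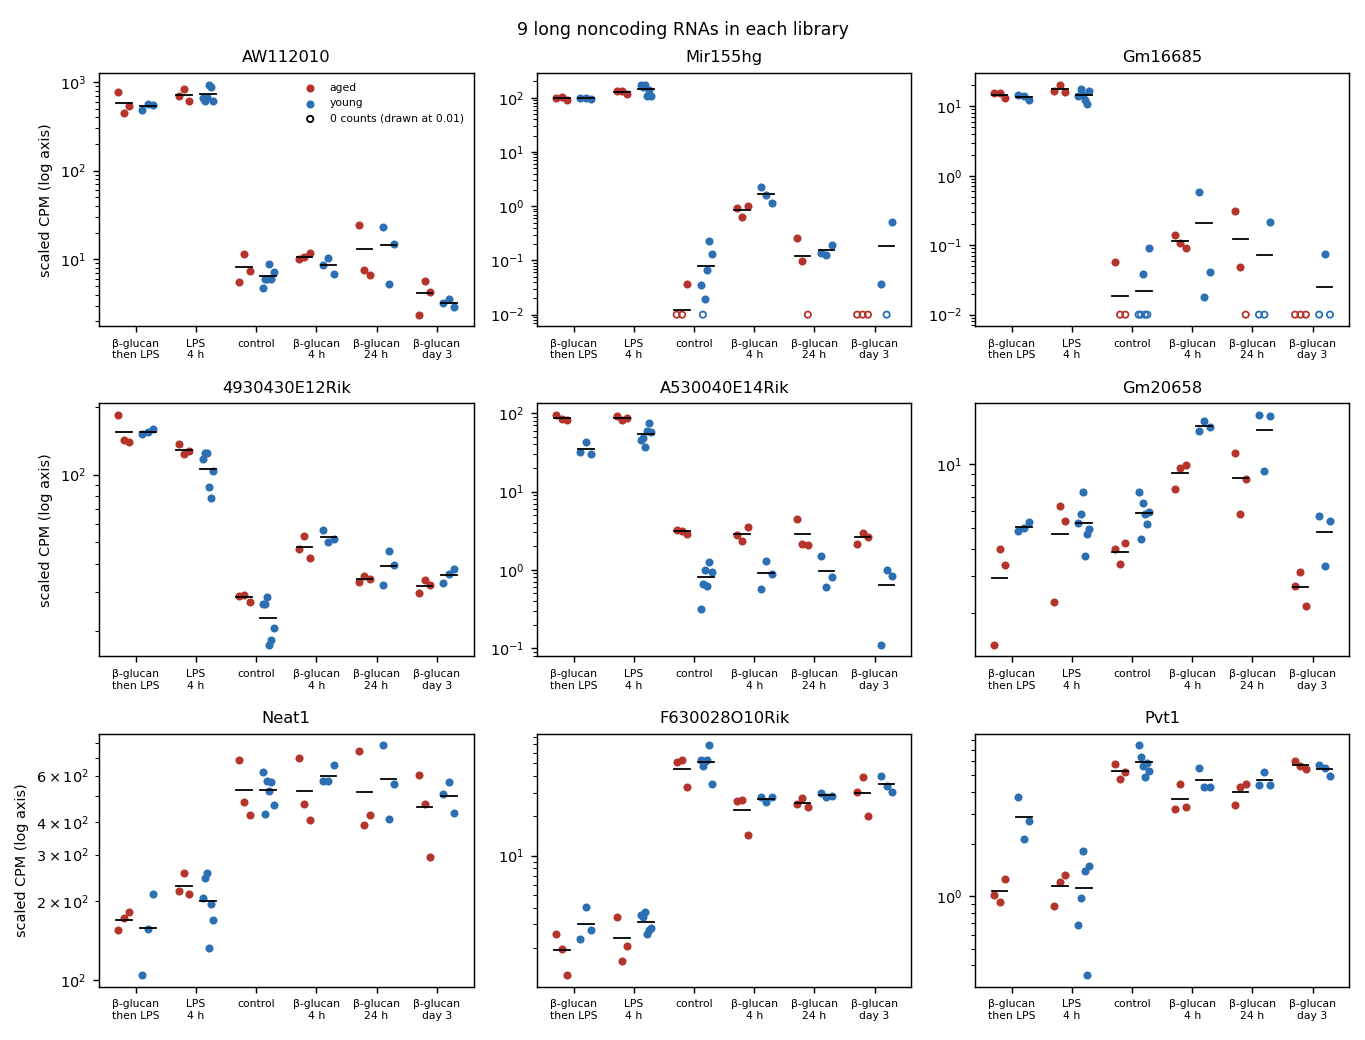
Scaled CPM (log axis) of 9 long noncoding RNAs in each library of the 12 groups, aged libraries in red to the left of young libraries in blue, with bars at group means and open circles at 0.01 for libraries with no count. AW112010, Mir155hg and Gm16685 are high in LPS and primed LPS libraries alone, and Neat1, F630028O10Rik and Pvt1 are lowest there.

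The largest falls included the RNA that holds miR-223. F630028O10Rik stood at 3.42, 1.57 and 2.05 scaled CPM in aged LPS libraries, against 51.0, 53.0 and 32.9 in aged controls. In young cells it stood at 2.53, 3.10 and 3.74 with LPS (lowest, median and highest), against 35.0, 52.4 and 68.9 in controls. The log2 change was -4.27 in aged cells (SE 0.30, adjusted p = 1.98e-14, edgeR's quasi-likelihood test with Benjamini-Hochberg adjustment) and -4.05 in young cells (SE 0.21, adjusted p = 1.80e-18). Every LPS library lay far below every control library of the same age.

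Gm45606, antisense within the amino acid transporter gene Slc43a2, averaged 0.852 ± 0.533 scaled CPM with LPS and 9.16 ± 0.913 in controls of aged cells (SD, n = 3 each). In young cells it averaged 0.443 ± 0.294 with LPS and 11.2 ± 1.80 in controls (SD, n = 6 each). Its log2 changes were -3.38 and -4.62. AI839979 fell by 4.06 log2 units in aged cells and by 4.47 in young cells, to under 0.300 scaled CPM in every LPS library. Pvt1, the RNA downstream of the proto-oncogene Myc, averaged 1.14 ± 0.229 scaled CPM with LPS and 5.25 ± 0.547 in controls of aged cells (SD, n = 3 each), and 1.12 ± 0.549 with LPS and 5.92 ± 0.899 in controls of young cells (SD, n = 6 each). Its log2 changes were -2.20 in aged and -2.39 in young cells.

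Of the 15 most abundant RNAs, Neat1 took the largest loss in CPM. Neat1 stood at 218, 256 and 212 scaled CPM in aged LPS libraries, against 688, 476 and 424 in aged controls. In young cells it stood at 132, 200 and 255 with LPS (lowest, median and highest), against 428, 548 and 621 in controls. The groups did not overlap, and the log2 change was -1.21 in aged cells (SE 0.28, adjusted p = 0.000443) and -1.43 in young cells (SE 0.20, adjusted p = 2.06e-07, both edgeR's quasi-likelihood test with Benjamini-Hochberg adjustment). The pseudogene transcript Tmem250-ps fell by 1.84 log2 units in aged cells and by 2.04 in young cells. AU020206 fell by 1.24 and by 1.58, and 1700020I14Rik fell by 1.09 and by 1.03.

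Malat1, beside Neat1 on the chromosome, did not pass the test. It stood at 393, 480 and 366 scaled CPM in aged LPS libraries, against 619, 396 and 367 in aged controls. In young cells Malat1 differed between replicates 1 to 3 and 4 to 6, at 472 to 554 with LPS and 441 to 736 in controls among replicates 1 to 3, and at 239 to 280 with LPS and 214 to 278 in controls among replicates 4 to 6. The log2 change was -0.16 in aged cells (SE 0.31) and -0.04 in young cells (SE 0.22), so a change within that error could not be seen. 2900097C17Rik and Tug1, with log2 changes of -0.03 and -0.04 in aged cells and -0.10 and 0.07 in young cells and standard errors of 0.05 to 0.09, did not pass the test either. Scaled to total counts, Malat1, 2900097C17Rik and Tug1 passed the test as lower, with log2 changes of -0.90, -0.77 and -0.78 in aged and -0.85, -0.90 and -0.73 in young cells, beside a median of -0.82 and -0.90 over all genes under that scaling.

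**Figure D4:**
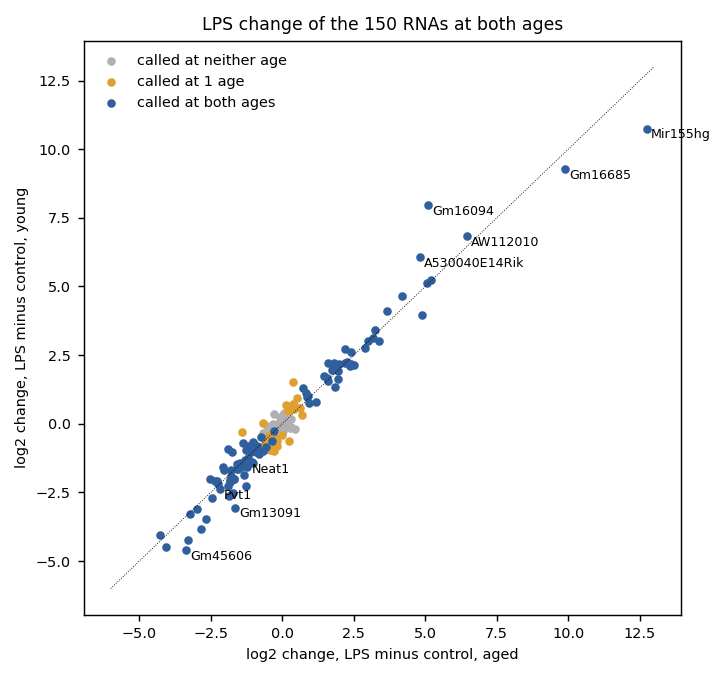
log2 change with LPS in aged macrophages (x) against the same in young macrophages (y) for the 150 long noncoding RNA genes, coloured by whether the gene was called at neither age, at 1 age or at both. No gene was called in opposite directions, and Mir155hg, Gm16685, Gm16094 and AW112010 lie far up while F630028O10Rik and Gm45606 lie far down.

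LPS 3 days after β-glucan also changed most of the 150 genes, and most of all tested genes. Against day 3 of β-glucan, 44 genes rose (29.3%) and 53 fell (35.3%) in aged cells, where 24.8% and 27.4% of all genes did. In young cells 41 rose (27.3%) and 60 fell (40%), where 24.9% and 26.7% of all genes did. Genes of similar level were not counted apart here. Scaling to total counts gave 31 higher and 90 lower in aged cells and 33 higher and 92 lower in young cells. The median log2 change over all genes was then -0.73 in aged and -0.76 in young cells. Among the 128 genes ranking first in controls, 25 rose and 52 fell in aged cells and 23 rose and 59 fell in young cells. In young cells 99 genes were called in the same direction with primed and with unprimed LPS, 98% of the primed calls and 80.5% of the unprimed calls. In aged cells 89 genes were, 91.8% of the primed and 89% of the unprimed calls, and 1, Gm26617, was called in opposite directions. These overlaps were not counted over all genes either. Gm26617 changed by 0.60 log2 units with primed LPS in aged cells, a call lost under total counts, where it was -0.05, and without primed LPS replicate 2 or day 3 replicate 1, and by -0.69 with LPS alone. The difference between its changes with and without priming did not pass the test (adjusted p = 0.191, edgeR's quasi-likelihood test with Benjamini-Hochberg adjustment).

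AW112010 stood at 762, 447 and 531 scaled CPM in aged primed LPS libraries and at 480, 564 and 556 in young ones. The log2 change against day 3 was 7.15 in aged cells (SE 0.48) and 7.36 in young cells (SE 0.49). Mir155hg stood at 98.8, 101 and 90.4 scaled CPM in aged primed LPS libraries, against no count in the 3 aged day 3 libraries. With that day 3 group set to a floor of 3 counts, the ratio was 5490, a value that rests on the floor chosen. In young cells Mir155hg stood at 99.1, 101 and 92.8 with primed LPS, against 0.0367, 0 and 0.514 at day 3. Neat1 fell again, averaging 169 ± 13.7 scaled CPM with primed LPS and 455 ± 156 at day 3 in aged cells, and 158 ± 54.2 and 504 ± 68.1 in young cells (SD, n = 3 each). F630028O10Rik fell by 3.99 log2 units in aged cells and by 3.52 in young cells.

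The direct question of priming is whether LPS reached another level after β-glucan than without it. In aged cells no member differed between primed and unprimed LPS by edgeR's quasi-likelihood test, where 0.606% of all genes were higher and 0.38% lower. Among the members 25 had an unadjusted p under 0.05, and DESeq2 called 1. Shares of all genes at an unadjusted p under 0.05 are not given here or below. In young cells 5 genes were higher (Pvt1, 1300002E11Rik, 1810034E14Rik, Gm30329 and 4930430E12Rik) and 2 lower (Mir17hg and Gm16712) with primed LPS, against 2.44% and 1.17% of all genes. Leaving out primed LPS replicate 2 or 3 left 2 calls, and leaving out LPS replicate 1, 2 or 5 left 4.

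Pvt1 had the lowest adjusted p of these 7 genes. It stood at 3.75, 2.13 and 2.74 scaled CPM in young primed LPS libraries, against 0.352, 1.19 and 1.82 in young LPS libraries (lowest, median and highest). The lowest primed library stood above the highest unprimed one. The log2 difference was 1.25 (SE 0.27, adjusted p = 0.00409, edgeR's quasi-likelihood test with Benjamini-Hochberg adjustment). Without primed LPS replicate 1, or with these groups fitted alone, the adjusted p passed 0.05, and its highest value over the alternatives was 0.158. In aged cells Pvt1 stood at 1.01, 0.924 and 1.26 scaled CPM with primed LPS and 0.885, 1.21 and 1.32 without, a log2 difference of -0.10 (SE 0.32).

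The host RNA Mir17hg was lower with primed LPS in young cells, at 1.08, 0.533 and 0.951 scaled CPM, against 1.62, 2.32 and 3.02 with LPS alone (lowest, median and highest). The log2 difference was -1.47 (SE 0.39, adjusted p = 0.0245, edgeR's quasi-likelihood test with Benjamini-Hochberg adjustment). The call was lost without primed LPS replicate 2 or 3 or LPS replicate 3, with an adjusted p of up to 0.163. In aged cells Mir17hg averaged 1.24 ± 0.0815 scaled CPM with primed LPS and 1.76 ± 0.917 without (SD, n = 3 each), which did not pass the test. Mir155hg was at 92.8 to 101 scaled CPM with primed LPS and 108 to 174 without in young cells, with an adjusted p of 0.0605.

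A further test asked whether the LPS response itself, LPS over its own baseline, differed with and without β-glucan. In young cells 2 of the 150 genes passed, Pvt1 and 1300002E11Rik, each with an LPS change higher by 1.48 log2 units after β-glucan, where 0.64% of all genes were higher and 0.374% lower. For both this was a smaller fall. Pvt1 changed by -0.91 log2 units with primed LPS against day 3 and by -2.39 with LPS against control, and 1300002E11Rik by -0.38, which did not pass, and by -1.86. Adjusted p for the difference was 0.0214 (SE 0.34) for Pvt1 and 0.0323 (SE 0.36) for 1300002E11Rik by edgeR's quasi-likelihood test with Benjamini-Hochberg adjustment. Without any 1 of day 3 replicates 1 to 3 or primed LPS replicate 1 neither gene passed, and without primed LPS replicate 3, LPS replicate 5 or control replicate 4 only 1 gene did. In aged cells none passed by edgeR, against 0.00567% of all genes higher and 0.00567% lower, with 11 at an unadjusted p under 0.05 and 1 called by DESeq2.

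β-glucan alone moved far fewer genes. At 4 h, 6 rose and 4 fell in aged cells, where 4.87% and 1.59% of all genes did, and 14 rose and 9 fell in young cells, against 7.45% and 4.61%. At 24 h, 3 rose and 7 fell in aged cells, against 4.02% and 1.21% of all genes, and 8 rose and 12 fell in young cells, against 7.79% and 3.75%. With total counts the young split was 11 higher and 15 lower at 4 h and 7 higher and 18 lower at 24 h. The median log2 change over all genes was then -0.11 at 4 h and -0.10 at 24 h. Counts of calls depended on single libraries. In aged cells the 10 calls at 4 h became 5 without β-glucan replicate 3, and the 10 at 24 h became 4 without β-glucan replicate 1, 6 without control replicate 1 and 3 without control replicate 2. In young cells the 23 calls at 4 h became 14 without β-glucan replicate 1 and 15 without control replicate 3, and the 20 at 24 h became 9, 11 and 13 without β-glucan replicate 1, β-glucan replicate 3 and control replicate 2.

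The β-glucan responses of 4930430E12Rik and Dubr at 4 h kept their call under each alternative fitted. 4930430E12Rik stood at 46.7, 53.1 and 42.6 scaled CPM after 4 h of β-glucan in aged cells, against 28.7, 29.2 and 27.2 in controls, a log2 change of 0.74 (SE 0.11). In young cells 4930430E12Rik stood at 56.8, 49.95 and 51.5 scaled CPM at 4 h, against 26.6, 26.4 and 28.6 in control replicates 1 to 3, a log2 change of 0.98 (SE 0.10). Dubr, an RNA known from muscle differentiation, stood at 54.1, 51.9 and 47.5 scaled CPM at 4 h in aged cells, against 36.9, 40.3 and 36.4 in controls. In young cells Dubr averaged 60.8 ± 3.32 scaled CPM at 4 h (n = 3) and 36.3 ± 5.82 in controls (n = 6, both SD), and its log2 changes were 0.44 in aged and 0.62 in young cells. Dubr did not pass the test with LPS at either age. Scaled to total counts, Dubr passed as lower with LPS, with log2 changes of -0.81 in aged and -0.70 in young cells. The median over all genes under that scaling was -0.82 in aged and -0.90 in young cells.

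Gm20658 also rose with β-glucan, and none of the 4 LPS comparisons against controls or day 3 called it. It stood at 7.67, 9.51 and 9.86 scaled CPM after 4 h of β-glucan in aged cells, against 4.01, 3.40 and 4.25 in controls, and at 14.2, 15.9 and 14.8 in young cells, against 4.45, 5.90 and 7.38 in controls (lowest, median and highest). The log2 change at 4 h was 1.21 at each age (SE 0.28 in aged and 0.26 in young cells), and at 24 h it was 1.13 in aged cells (SE 0.28) and 1.14 in young cells (SE 0.26). The aged call at 24 h was lost with these groups fitted alone and without β-glucan replicate 1 or control replicate 2, and the other calls of Gm20658 held under each alternative.

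Mir155hg also responded to β-glucan, at a level far below that with LPS. It stood at 0.943, 0.625 and 0.999 scaled CPM at 4 h in aged cells, against 0, 0 and 0.0366 in controls, and at 2.26, 1.64 and 1.14 in young cells, against 0, 0.0516 and 0.227 in controls (lowest, median and highest). The ratio of pooled levels was 54.43 in aged cells (95% counting interval 18.63 to 264) and 21.09 in young cells (14.49 to 32). At 24 h it stood at no more than 0.262 scaled CPM at either age. F630028O10Rik moved the other way at both ages. In aged cells it averaged 22.2 ± 6.91 scaled CPM at 4 h and 25.1 ± 2.10 at 24 h, against 45.7 ± 11.1 in controls (SD, n = 3 each), with log2 changes of -1.04 and -0.86. These aged calls were lost with groups fitted alone, at 4 h also without β-glucan replicate 3, and at 24 h also with no filter and without β-glucan replicate 1 or 3 or control replicate 1 or 2. The young level averaged 27.0 ± 1.44 scaled CPM at 4 h and 28.6 ± 0.969 at 24 h (n = 3 each), against 51.5 ± 10.9 in controls (SD, n = 6), with log2 changes of -0.996 and -0.91 that held under each alternative.

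At day 3 few genes passed the test. In aged cells no member passed edgeR's quasi-likelihood test, where 0.136% of all genes rose and 0.085% fell, with 15 members at an unadjusted p under 0.05 and 1 called by DESeq2. In young cells 4930430E12Rik alone rose, against 0.544% of all genes higher and 0.238% lower. It stood at 32.9, 36.0 and 38.1 scaled CPM at day 3, against 26.6, 26.4 and 28.6 in control replicates 1 to 3. The log2 change was 0.42 (SE 0.10, adjusted p = 0.0231, edgeR's quasi-likelihood test with Benjamini-Hochberg adjustment). The call was lost without day 3 replicate 2 or 3 or control replicate 1, with these groups fitted alone and with total counts, which leaves 0 genes.

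Few of the 150 genes differed with age. Aged over young, A530040E14Rik, Tnfsf13os and Gm16094 made 3 that were higher in controls, with none lower (0.323% and 0.119% of all genes), 1 was higher at day 3, again A530040E14Rik (0.068% of all genes higher, none lower), and none differed at 4 h or 24 h of β-glucan by edgeR (0.193% and 0.306% of all genes higher, 0.017% and 0.00567% lower). There, 11 and 7 genes had an unadjusted p under 0.05, and DESeq2 called 3 and 1. With LPS 3 were higher (Tnfsf13os, Gm13091 and 4930589L23Rik) and 1 lower (Gm16712), against 0.567% and 0.329% of all genes. With primed LPS 1 was higher (A530040E14Rik) and 1 lower (Pvt1), against 0.119% and 0.0453%. No treatment response differed with age by edgeR in any of 6 tests, where at most 0.00567% of all genes did, with 3 to 10 members at an unadjusted p under 0.05 and none called by DESeq2.

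A530040E14Rik differed most clearly. It stood at 3.25, 3.15 and 2.91 scaled CPM in aged controls, against 0.319, 0.796 and 1.26 in young controls (lowest, median and highest). Every aged control stood above every young one, and the log2 difference was 1.98 (SE 0.30, adjusted p = 0.000900, edgeR's quasi-likelihood test with Benjamini-Hochberg adjustment), which held under each alternative. With LPS it stood at 91.3, 82.0 and 86.5 scaled CPM in aged cells and at 37.2, 52.8 and 75.9 in young cells (lowest, median and highest), a log2 difference of 0.71 with an adjusted p of 0.136. With primed LPS it stood at 95.0, 85.2 and 82.6 scaled CPM in aged cells, against 32.0, 42.5 and 30.4 in young cells, a log2 difference of 1.33 (SE 0.27, adjusted p = 0.0251). That call was lost without aged replicate 1 or 2 or any 1 young replicate, with no filter and by DESeq2. With 4 h and 24 h of β-glucan the log2 difference was 1.64 and 1.58, with adjusted p of 0.0529 and 0.0519. Its neighbour A530032D15Rik, which shares 14.8% of its exonic bases, differed by 0.56 log2 units in controls and did not pass the test. Stromal markers were also higher in aged than in young libraries in several groups (54.3 to 155 against 26.7 to 94.1 CPM in controls, and 56.6 to 107 against 21.5 to 30.2 CPM with primed LPS), and their part in the result was not tested.

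Tnfsf13os, antisense to the cytokine gene Tnfsf13, stood at 4.61, 4.40 and 5.33 scaled CPM in aged controls, against 1.33, 1.86 and 2.68 in young controls (lowest, median and highest). The log2 difference was 1.29 (SE 0.26, adjusted p = 0.00851, edgeR's quasi-likelihood test with Benjamini-Hochberg adjustment), and the call was lost without aged control replicate 3. That of Gm16094 was lost without aged control replicate 2, and its aged and young controls overlapped. Counts of age calls with LPS depended on single libraries. The 4 calls with LPS became 0 without any 1 of the 3 aged LPS libraries or young LPS replicate 5, 1 without young LPS replicate 1 or 3 and 2 without young LPS replicate 4. The 2 calls with primed LPS became 0 without aged replicate 1 or 2 or young replicate 1 or 3 and 1 without young replicate 2, and the call at day 3 was lost without any 1 of the libraries.

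Nearest coding genes were tested for 139 of the 150 genes. Of these 139 neighbours, 64 rose and 33 fell with LPS in aged cells and 71 rose and 40 fell in young cells. Among all genes 26.6% rose and 28.9% fell in aged cells and 30.3% rose and 34.7% fell in young cells. With LPS in aged cells, the neighbour rose beside 34 of 39 genes that rose, and of 56 that fell the neighbour fell beside 23 and rose beside 15. In young cells, the neighbour rose beside 42 of 45 genes that rose, and of 72 that fell the neighbour fell beside 33 and rose beside 20. Among the 82 pairs with no shared exonic bases, the neighbour rose beside 16 of 20 rising genes in aged cells and 21 of 23 in young cells. In those pairs the neighbours of falling genes went both ways, with 15 lower, 14 higher and 12 not called in aged cells and 21 lower, 17 higher and 10 not called in young cells. The part of shared reads, from exons or from transcripts that run on past a gene's end, was not tested.

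**Figure D5:**
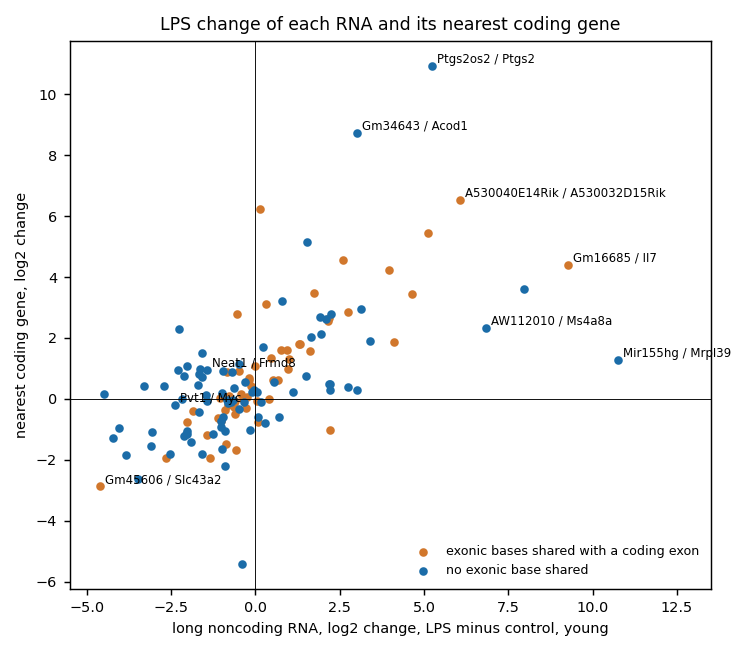
log2 change with LPS in young macrophages of each long noncoding RNA (x) against that of its nearest coding gene (y), with pairs that share exonic bases in orange and those that do not in blue. Of 45 rising RNAs 42 lie beside a rising gene, while the falling RNAs lie beside genes that move in both directions.

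Ptgs2, the prostaglandin synthase gene 50816 bases from Ptgs2os2, averaged 3871 ± 1003 scaled CPM with LPS and 1.11 ± 0.639 in controls of aged cells (SD, n = 3 each), a log2 change of 11.77. Acod1, 22520 bases from Gm34643, had log2 changes of 9.74 in aged and 8.73 in young cells. Il7, under Gm16685, averaged 3.64 ± 0.273 scaled CPM with LPS and 0.170 ± 0.0970 in controls of young cells (SD, n = 6 each). Some pairs went apart. Frmd8, 4224 bases from Neat1, rose by 0.93 log2 units in aged and by 0.95 in young cells, and Akap13, the nearest gene to the falling AU020206, rose by 1.65 and by 1.52. Myc fell by 0.50 log2 units in aged cells (adjusted p = 0.0314, edgeR's quasi-likelihood test with Benjamini-Hochberg adjustment) and had a log2 change of -0.20 in young cells, which did not pass, beside -2.20 and -2.39 for Pvt1.

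Gene lists by role gave small counts. Of 9 tested nuclear architecture and dosage RNAs, among them Neat1, Malat1 and Tug1, none rose and 6 fell with LPS in aged cells and 7 in young cells, with a median log2 change of -1.10 and -1.07. Of 17 tested snoRNA host genes, whose introns hold small nucleolar RNAs, 1 rose and 6 fell in aged cells and 1 rose and 7 fell in young cells. Snhg20, a member, fell by 1.45 log2 units in aged and by 1.59 in young cells, and Snhg6, also a member, did not pass (0.21 and 0.13). Of 9 tested microRNA hosts, 5 rose and 2 fell in aged cells and 5 rose and 3 fell in young cells. Mir142hg averaged 3.48 ± 1.03 scaled CPM with LPS and 6.42 ± 1.97 in controls of young cells (SD, n = 6 each), a log2 change of -0.91, and Mir17hg did not pass with LPS at either age.

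Genes for proteins that work with these RNAs also changed with LPS. Of 10 paraspeckle protein genes, 7 rose and 3 fell at each age while Neat1 fell. Of 14 nuclear exosome and adaptor genes, 5 rose and 8 fell in aged cells and 4 rose and 8 fell in young cells. Of 8 microRNA processing genes, 3 rose and 5 fell in aged cells and 2 rose and 5 fell in young cells. The snoRNP protein list had 2 rises and 2 falls of 8 in aged cells and 3 rises and 2 falls in young cells, and the nonsense-mediated decay list had 6 rises and 2 falls of 10 in aged cells and 7 rises and 2 falls in young cells. Of 15 tested RNAs described in inflammatory macrophages, a list partly defined by LPS responses, 6 rose and 5 fell in aged cells and 7 rose and 4 fell in young cells. Over all tested genes, 26.6% rose and 28.9% fell in aged cells and 30.3% rose and 34.7% fell in young cells.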

How the data were processed

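RNA was sequenced from 42 macrophage libraries in 12 groups, with an Ultra RNA library kit (NEBNext) per the labels' protocols. The authors deposited raw read counts per gene with gene names, types and coordinates, on mm10 with alignment by STAR per the submitters' processing notes. The counting program and its strand setting are not given in the sources used here. Overlapping and antisense genes can therefore share reads. The deposited FPKM values were not used.

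The 150 members and the gene lists were chosen with earlier results of these data known. Ranking used CPM over raw totals of 39850835 to 67347866 counts. One model of all 42 libraries was fitted with edgeR 4.0.16 (R 4.3.3, limma 3.58.1) with TMM scaling, a filter by group size at a count minimum of 10, and the quasi-likelihood test. It had the 12 groups and a term for young replicates 4 to 6, which occur in controls and LPS only and were assumed to be a second set, since the labels name none. The age comparisons in controls and with LPS set the young mean midway between replicates 1 to 3 and 4 to 6. The other age comparisons between groups had young replicates 1 to 3 only. All 26 comparisons were adjusted by Benjamini-Hochberg over 17648 genes, with a threshold of 0.05, and all tests were two-sided. Levels in comparisons are counts over TMM-scaled totals. Counting intervals are exact Poisson at 95%, and the floor is 3 counts over a group. DESeq2 1.42.0, other scalings, no filter, a replicate block, each comparison's groups fitted alone, young replicates 1 to 3 only, and leaving out each library were tried as alternatives. The script was tested on simulated counts. No replicates of a group held the same values. Exons came from GENCODE M21 and sequences from RefSeq on GRCm38.p6. Tables and plots used Python 3.11.15, pandas 2.3.3 and matplotlib 3.10.9.

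Genes are named by rule: the 15 most abundant, up to 6 largest rises and falls per comparison among called genes with no overlap between groups, members of the lists, age calls, the 10 largest ratios between groups, genes at the limit of the ranking, and nearest coding genes of these.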

Additional observations from a re-analysis of the deposited data

Results flagged for a closer look

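Among the named genes, 9 of 124 groups of 6 young libraries held a value set apart from the other 5 by a wide gap, and chance gives about 1 in 20. In young LPS libraries the highest value stood apart for Gm26917 (60.64 scaled CPM, next 44.91), Gm16712 (55.38, next 37.12), Gm13091 (1.094, next 0.5469) and 6720427I07Rik (3.824, next 2.263). The lowest stood apart for Snhg12 (0.8067, next 1.47) and Gm6634 (3.486, next 4.58). In young controls the highest stood apart for Gm16094 (0.1223, next 0.03548) and Gm17017 (1.118, next 0.3701), and the lowest for Gm14461 (2.411, next 5.236).

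The LPS response with β-glucan minus that without it was 1.477 log2 units in young cells for Pvt1 and likewise 1.477 for 1300002E11Rik, by the test of the difference itself (adjusted p = 0.0214 and 0.0323, edgeR's quasi-likelihood test). In aged cells the same difference was -0.22 for Pvt1 and 0.79 for 1300002E11Rik, neither past the threshold.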

How the results depend on the processing

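Of 264 calls named over the comparisons, alternatives other than leaving out a library gave 1846 values, of which 1735 kept direction and call, 109 kept direction only and 2 turned round. The 2 were under total counts, Gm26617 in aged primed LPS against day 3 (-0.053 log2 units, 0.60 as reported) and Gm26917 in young LPS (-0.17, 0.63 as reported). Leaving out a library in turn gave 2064 values, with 242 calls lost and none turned round. With LPS the calls ran from 93 to 98 in aged and 113 to 123 in young cells when a library was left out, and with primed LPS against day 3 from 89 to 96 and 90 to 99.

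Left-out libraries gave 5 to 10 calls in aged and 14 to 23 in young cells at 4 h of β-glucan, 3 to 12 and 9 to 21 at 24 h, and 0 to 1 at day 3 at each age. For primed against unprimed LPS they gave 0 to 1 in aged and 2 to 6 in young cells, and for the difference in LPS response 0 in aged and 0 to 3 in young cells. Aged over young they gave 2 to 3 in controls, 0 to 1 at 4 h and at 24 h, 0 at day 3, 0 to 5 with LPS and 0 to 2 with primed LPS.

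DESeq2 gave 1 call in aged cells at day 3, 1 for aged primed against unprimed LPS, 1 and 4 for the response difference in aged and young cells, and for age 6 in controls, 3 at 4 h, 1 at 24 h and 3 at day 3. Groups fitted alone gave 2 in aged and 12 in young cells at 24 h, 1 in aged primed against unprimed LPS, 0 for the young response difference, and for age 2 at 4 h and 1 with primed LPS. No filter gave 5 in aged cells at 24 h, 3 in young primed against unprimed LPS, and for age 0 at day 3 and 1 with primed LPS. DESeq2-style size factors in edgeR gave 4 in young primed against unprimed LPS. Total counts gave 0 in young cells at day 3 and, for age, 1 at 4 h and 1 at 24 h. Young replicates 1 to 3 alone gave, for age, 0 at day 3 and 1 with LPS. The median log2 ratio of young LPS over control levels was -1.16 in raw CPM and -0.37 in scaled CPM. The cause of these shifts was not tested.

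Replicate numbers were not taken as a pairing in the main model. Of same-numbered pairs of libraries, 31 of 45 correlated above 0.1 in aged cells (mean r 0.146) and 18 of 48 in young cells (mean r 0.0688). Among pairs with different numbers 17 of 90 did in aged cells (mean r -0.074) and 11 of 96 in young cells (mean r -0.033). Same-numbered libraries were thus more alike on average at each age. The main model treats them as independent, and what they share was not tested. A fit with the replicate number as a block gave 124 calls with LPS in young and 102 in aged cells, 3 in young cells at day 3 and 2 for age at 4 h. Depth limits the genes that were near 0 counts in controls, such as Mir155hg and Gm16685, whose ratios have wide counting intervals.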
